A study of Mus musculus with 16 samples.

Results

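The genes described here are 10 transcription factors by which mesenchymal cells are commonly recognised, Twist1, Twist2, Prrx1, Prrx2, Snai1, Snai2, Zeb1, Zeb2, Tcf21 and Foxf1, among the 54453 genes of a total RNA-sequencing table. They were chosen by name, with no value of these genes in the rule, though with earlier results of these data known. All 10 were found by symbol among the 21872 protein-coding genes. The table covers 16 lines of immortalised mouse embryonic fibroblasts (MEFs), cells grown out of C57BL/6J embryos at E13.5 and carried through crisis by serial passaging. The parental line MEF-1 and the parental line MEF-2 come from 2 sibling embryos, and 7 clonal lines were grown from single sorted cells of each. Every line was sequenced once, so that each clonal line is 1 clone and 1 library, a parental line has no replicate, and MEF-1 and MEF-2 differ in embryo, sex (male and female, respectively), culture history and every change fixed during immortalisation, which cannot be told apart. The sequencing was done to set gene expression beside the inheritance of DNA methylation in clones, and no line received a treatment. The p-values below measure the spread between clones of 1 culture, which is not the spread between embryos.

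Twist1 and Twist2 are basic helix-loop-helix (bHLH) factors that bind E-box DNA as dimers, often with an E protein, and the Id proteins hold E proteins away from DNA. Prrx1 and Prrx2 are paired-type homeobox factors of limb bud and craniofacial mesenchyme. Snai1 and Snai2 (Slug) are zinc finger repressors and Zeb1 and Zeb2 are zinc finger repressors with a homeodomain, and the members of both families bind E-boxes and repress epithelial genes such as Cdh1 during epithelial-to-mesenchymal transition. Tcf21 is a bHLH factor of epicardial and visceral mesenchyme. Foxf1 is a forkhead factor of lateral plate and visceral mesoderm, and the long noncoding RNA gene Fendrr is transcribed away from it on the other strand.

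Promoter sequence is shown for 5 of the 10 members and for Fendrr, since the study concerns CpG methylation and these promoters range from poor to rich in CpG. The 250 bases upstream of the most 5′ start in RefSeq (GRCm38.p6, the build of mm10) are printed 5′ to 3′ in the direction of the gene, with each CpG dinucleotide in capitals. They lie at chr12:33957421-33957670, plus strand, for Twist1, at chr1:91801211-91801460, plus strand, for Twist2, at chr1:163313651-163313900, minus strand, for Prrx1, at chr2:45117443-45117692, minus strand, for Zeb2, at chr10:22820144-22820393, minus strand, for Tcf21 and at chr8:121083111-121083360, minus strand, for Fendrr.
Twist1: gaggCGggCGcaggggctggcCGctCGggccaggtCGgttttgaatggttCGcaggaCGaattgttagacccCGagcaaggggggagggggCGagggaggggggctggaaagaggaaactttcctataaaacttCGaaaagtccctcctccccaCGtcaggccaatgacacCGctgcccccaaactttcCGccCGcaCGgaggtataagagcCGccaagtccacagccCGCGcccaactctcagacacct
Twist2: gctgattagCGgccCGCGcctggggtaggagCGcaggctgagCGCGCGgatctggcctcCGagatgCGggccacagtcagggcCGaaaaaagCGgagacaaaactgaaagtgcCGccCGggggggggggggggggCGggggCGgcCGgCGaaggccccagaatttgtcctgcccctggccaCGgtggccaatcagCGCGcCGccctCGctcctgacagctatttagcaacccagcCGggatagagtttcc
Prrx1: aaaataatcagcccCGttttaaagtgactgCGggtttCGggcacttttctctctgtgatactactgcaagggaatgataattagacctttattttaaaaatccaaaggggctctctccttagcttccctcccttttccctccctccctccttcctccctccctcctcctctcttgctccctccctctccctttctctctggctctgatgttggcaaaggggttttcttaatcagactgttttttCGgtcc
Zeb2: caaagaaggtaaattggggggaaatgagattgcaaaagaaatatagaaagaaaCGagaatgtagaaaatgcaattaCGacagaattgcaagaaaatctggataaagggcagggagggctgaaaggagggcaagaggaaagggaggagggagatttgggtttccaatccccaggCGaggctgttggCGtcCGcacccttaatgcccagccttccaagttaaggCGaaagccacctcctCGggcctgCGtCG
Tcf21: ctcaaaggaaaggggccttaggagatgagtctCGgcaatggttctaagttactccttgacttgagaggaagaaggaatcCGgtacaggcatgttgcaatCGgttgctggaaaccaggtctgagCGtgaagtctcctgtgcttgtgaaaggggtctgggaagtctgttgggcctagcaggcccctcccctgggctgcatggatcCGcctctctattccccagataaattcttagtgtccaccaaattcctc
Fendrr: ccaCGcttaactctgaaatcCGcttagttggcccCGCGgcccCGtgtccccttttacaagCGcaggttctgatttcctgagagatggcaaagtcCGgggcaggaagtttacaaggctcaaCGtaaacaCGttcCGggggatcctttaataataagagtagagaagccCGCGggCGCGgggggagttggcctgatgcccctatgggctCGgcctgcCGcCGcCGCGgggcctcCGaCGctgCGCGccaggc

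The paralogues Twist1 and Twist2 both had a CpG-rich window, with 18 and 23 CpGs, against a median of 6 over 27018 promoters. Prrx1, with 4, and Tcf21, with 5, lay under that median, and Zeb2, with 9, above it. The windows of Prrx2 and Snai1 held 21 and 27 CpGs and that of Fendrr 23. The E-box CANNTG, which reads the same on both strands in its fixed letters, was present in 1 of the 7 members with a promoter in the table, and in 66.1% of all promoters. That member was Snai1, whose E-box is also CACCTG, the form bound by Snail and Zeb factors (CACCTG or CAGGTG, the 2 strands of 1 motif, found in 17.1% of all promoters). It stood 126 to 121 bases before the start, here in capitals within chr2:167538057-167538086, plus strand.
Snai1 E-box: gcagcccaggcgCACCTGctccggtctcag
A match of these letters is a description of the window and was not tested for binding. Snai2 and Foxf1 had no entry, and the promoter of Zeb1 was not analysed here.

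The deposited value is an rlog (regularised log), the log2 of a read count scaled to library size, with each line drawn towards the average of the gene when reads are few. Of the 10 members, 9 were clearly expressed and 1 was not. By the average over all lines, Prrx1 (12.69), Prrx2 (12.04), Snai1 (12.75), Snai2 (12.88) and Zeb1 (13.55) lay above the 80th percentile of protein-coding genes, at 11.96. Twist1 (11.87), Foxf1 (11.42) and Zeb2 (10.96) lay between the 60th and 80th percentile, and Twist2 (7.54) between the 40th and the 60th. Tcf21 averaged −2.10, in the group without expression, and its antisense neighbour Gm10824 averaged 1.31.

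Levels of different genes were compared per length, as the average minus the log2 of the annotated exon length in kb. On this scale the order was Snai1 (12.05), Snai2 (11.87), Twist1 (11.16), Prrx2 (11.06), Zeb1 (10.19), Foxf1 (10.15), Prrx1 (9.23), Zeb2 (6.64), Twist2 (5.87) and Tcf21 (−3.33). Of the neighbours in this order, Snai1 was above Snai2 in 9 of the 14 clonal lines, Twist1 above Prrx2 in 9 and Zeb1 above Foxf1 in 8, while Snai2 was above Twist1, Foxf1 above Prrx1 and Zeb2 above Twist2 in 12 of 14. These 6 pairs changed order between lines, and the means of the cultures differed in order too. Among MEF-1 clones Snai2 (12.21) was above Snai1 (12.13) and Prrx2 (11.19) above Twist1 (11.08), and among MEF-2 clones Foxf1 (10.34) was above Zeb1 (10.20). Prrx2 stood above Zeb1, Prrx1 above Zeb2 and Twist2 above Tcf21 in 14 of 14. With the length of the longest transcript in place of all exons, Prrx2 moved to 11.51, Zeb1 to 11.01, Prrx1 to 9.99 and Zeb2 to 7.77, which put Prrx2 above Twist1 and left Zeb2 and Twist2 (moved to 6.20) as the lowest of the expressed members.

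**Figure D1:**
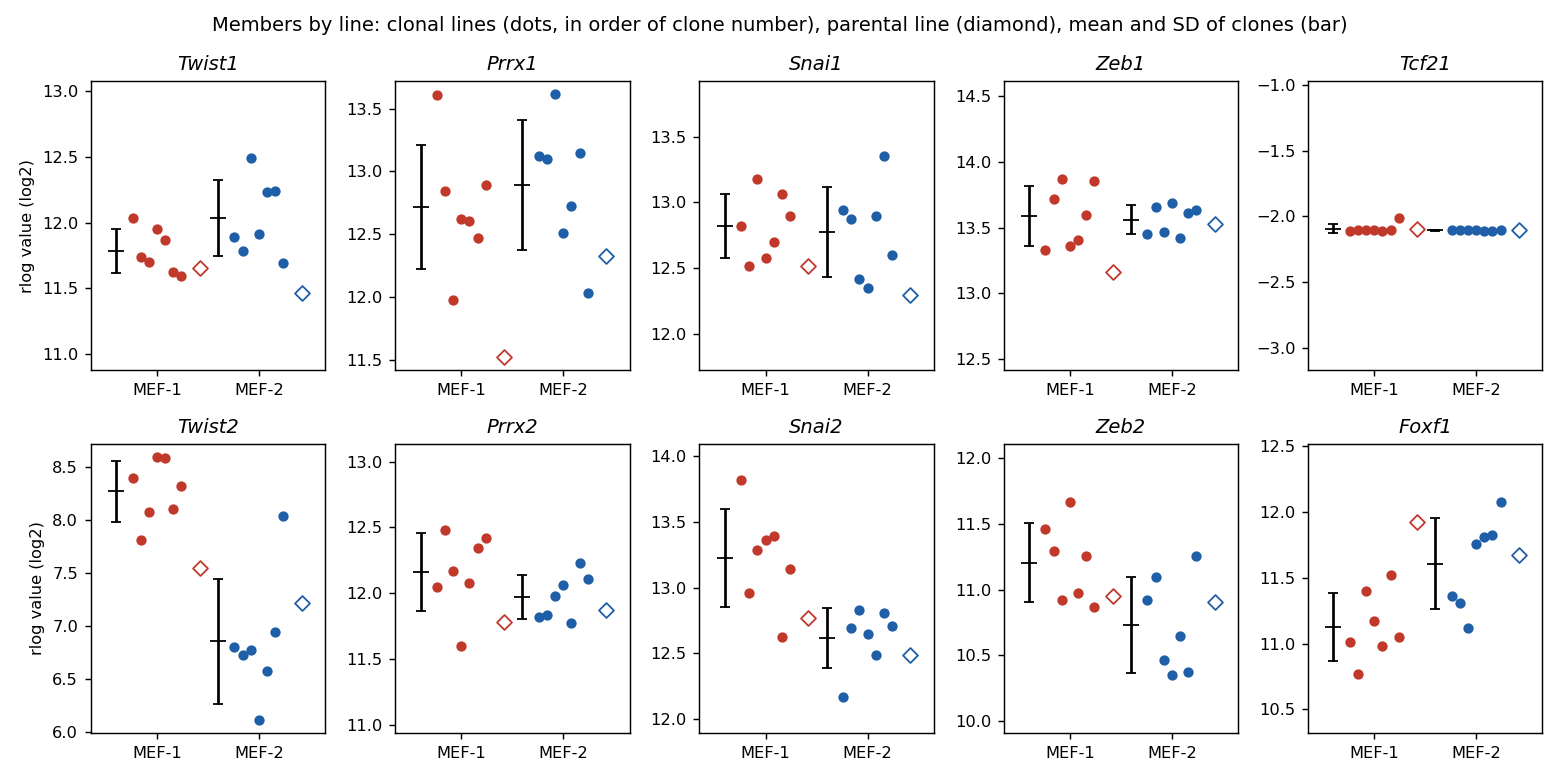
rlog values (log2, vertical axes, 1 axis per gene) of the 10 members in the MEF-1 (red) and MEF-2 (blue) lines. Dots are the 7 clonal lines in order of clone number, diamonds the parental line, and bars the mean and SD of the clonal lines. Twist2 and Snai2 sit lower in most MEF-2 lines, Foxf1 sits higher, and Tcf21 is at −2.1 to −2.0 everywhere.

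The comparison of the clonal lines of MEF-2 with those of MEF-1 asks whether cultures from 2 sibling embryos keep the same mesenchymal regulators. Of the 9 members tested, 4 passed limma's test at a Benjamini-Hochberg adjusted p under 0.05 over 15285 protein-coding genes. Over all these genes 56.1% passed, so that the members' 44.4% is no excess. Foxf1 alone was higher in MEF-2 (1 of 9, against 27.5% of all genes), while Twist2, Snai2 and Zeb2 were lower (3 of 9, against 28.6%). In no member were the clonal values of MEF-1 and MEF-2 free of overlap (0 of 9), against 25.9% of all genes tested. The median difference of the members was −0.05 on the log2 scale and that of all genes tested was −0.00. As the RNA is from whole cultures, fewer cells that express a gene and less RNA of it per cell cannot be told apart.

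Among the bHLH factors, Twist2 (ENSMUSG00000007805, chromosome 1, 91801461 to 91848028, plus strand) had the largest difference of all members. Its clonal values ran from 7.81 over a median of 8.32 to 8.59 in MEF-1, with the parental line at 7.54, and from 6.11 over 6.77 to 8.03 in MEF-2, with the parental line at 7.22. All MEF-2 clonal lines but line 7 were below every MEF-1 line, and the parental lines stood between the clones, close to each other. Twist2 was 2.67-fold lower in the MEF-2 clonal lines (log2 difference −1.42, SE 0.23, limma adjusted p = 0.000134), and the difference was −1.61 without MEF-2 line 7. The genes within 100 kb of Twist2 moved in the same direction. Its antisense gene Gm29100 was lower by a log2 difference of −1.05 (adjusted p = 0.000319), the intronic Gm29101 of −0.46 (adjusted p = 0.0239) and Hdac4, a histone deacetylase, of −0.36 (adjusted p = 0.000945). The library kit was directional, but whether the authors' counting used the strand is not given in the sources used here. It is therefore unknown how far reads of Twist2 were kept apart from those of the genes that overlap it.

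Twist1 (ENSMUSG00000035799, chromosome 12, 33957671 to 33959829, plus strand) ran from 11.60 over 11.73 to 12.03 in the MEF-1 clonal lines, with the parental line at 11.66, and from 11.69 over 11.92 to 12.49 in MEF-2, with the parental line at 11.46. MEF-2 lines 3, 5 and 6 were above all MEF-1 lines and the other 4 were among them. The difference, 0.25 (SE 0.12), did not pass the test (limma adjusted p = 0.0807), although it did without MEF-2 line 7 (0.31, adjusted p = 0.0330). The RNA level of chromosome 12 as a whole differed, being lower in MEF-1 than in MEF-2 clones. The median of its 453 other genes, as deviation from the mean of the 14 clonal lines, averaged −0.32 in clones of MEF-1 and 0.32 in clones of MEF-2, a step of 0.64 in which the MEF-2 parental line (0.26) stood with its clones and the MEF-1 parental line (−0.07) in between. For the culture with the lower level, the paper reports reduced DNA coverage of this chromosome in some or all lines. The paper proposes monosomy there. Whether DNA copy number accounts for the RNA step was not tested. The difference of Twist1 was smaller than that of its chromosome. When the chromosome median of each line was taken away, Twist1 was lower in MEF-2, with a log2 difference of −0.39 (SE 0.12, limma adjusted p = 0.0105). The direction for Twist1 thus depends on whether it is read per cell culture or relative to chromosome 12.

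The pair therefore changed in balance. The log2 difference of Twist1 over Twist2 within a line, in which library size cancels, was 3.52 ± 0.24 (SD, n = 7) for MEF-1 clones and 5.19 ± 0.74 (SD, n = 7) for MEF-2 clones, and 4.12 and 4.25 in the parental lines. The change of 1.67 was larger than the spread between lines (exact permutation test, two-sided, p = 0.00117, adjusted over 5 such pairs 0.00291), and was 1.09 with the chromosome medians taken away (adjusted p = 0.0160). This test and those of the other pairs were chosen after the values had been seen. Tcf21, the remaining bHLH member, was at −2.11 to −2.10 in 15 lines and at −2.01 in MEF-1 clonal line 7, so low that reads may be absent in most lines, and it was not tested.

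The homeobox factors passed no test between the cultures and varied among clones. Prrx1 (ENSMUSG00000026586, chromosome 1, 163245119 to 163313710, minus strand) ran from 11.98 over 12.62 to 13.61 in the MEF-1 clonal lines and from 12.03 over 13.10 to 13.62 in MEF-2. The lines with the highest value, MEF-1 line 1 and MEF-2 line 3, and those with the lowest, MEF-1 line 3 and MEF-2 line 7, were at nearly equal levels in both cultures. The difference was 0.18 (SE 0.25, limma adjusted p = 0.560), and it ran from 0.05 to 0.32 when lines were left out in turn. The MEF-1 parental line, at 11.52, was below all 7 of its clones, which stood above it by 1.20 on average on the log2 scale, while the MEF-2 parental line, at 12.33, was below 6 of 7.

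Prrx2 (ENSMUSG00000039476, chromosome 2, 30834972 to 30881251, plus strand) was steadier, from 11.60 over 12.17 to 12.48 in MEF-1 and from 11.78 over 11.98 to 12.23 in MEF-2, with parental values of 11.78 and 11.87. Its lowest value was that of MEF-1 line 4. The difference of −0.19 (SE 0.12) did not pass (limma adjusted p = 0.190), but did without MEF-1 line 4 (−0.28, adjusted p = 0.0177). Across the 7 clonal lines of a culture the Prrx genes passed no test of relation, with Pearson's r of −0.00 in MEF-1 and −0.21 in MEF-2 (exact permutation p = 0.995 and 0.648). Without the 2 lines farthest from the median of Prrx1, r was 0.40 in MEF-1 and 0.41 in MEF-2, which was not tested. Dnm3os, an antisense RNA gene of the Dnm3 locus and host of microRNAs, was at 13.60 ± 0.23 (SD, n = 7) and 13.70 ± 0.22 (SD, n = 7) and did not pass either (limma adjusted p = 0.499).

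Of the Snail factors, Snai2 differed and Snai1 did not pass the test. Snai2 (ENSMUSG00000022676, chromosome 16, 14705852 to 14709385, plus strand) ran from 12.62 over 13.28 to 13.82 in the MEF-1 clonal lines and from 12.17 over 12.69 to 12.83 in MEF-2, with parental values of 12.77 and 12.49. MEF-1 line 6 was the only MEF-1 clonal line within the MEF-2 range. Snai2 was 1.52-fold lower in MEF-2 (log2 difference −0.61, SE 0.15, limma adjusted p = 0.00348). Snai1 (ENSMUSG00000042821, chromosome 2, 167538195 to 167542814, plus strand) ran from 12.51 over 12.82 to 13.18 and from 12.35 over 12.87 to 13.35, with parental values of 12.52 and 12.30, and its groups overlapped over nearly the whole range (difference −0.05, SE 0.15, limma adjusted p = 0.802). When lines were left out in turn, the difference of Snai1 ran from −0.14 to 0.02. In MEF-2, Snai1 was above the parental line in all 7 clones. The balance of Snai1 over Snai2 moved from −0.40 ± 0.49 (SD, n = 7) to 0.16 ± 0.44 (SD, n = 7). This change of 0.56 did not pass after adjustment (exact permutation p = 0.0484, adjusted p = 0.0806), and it did with chromosome medians taken away and when either MEF-1 line 6 or MEF-2 line 3 was left out. Snai2 had no expressed neighbour within 100 kb.

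Zeb2 (ENSMUSG00000026872, chromosome 2, 44983632 to 45117395, minus strand) ran from 10.87 over 11.26 to 11.67 in the MEF-1 clonal lines and from 10.35 over 10.65 to 11.25 in MEF-2, and the parental lines had nearly the same value, 10.95 and 10.90. MEF-2 lines 3 to 6 were below all MEF-1 lines, and lines 1, 2 and 7 were among them. Zeb2 was 1.39-fold lower in MEF-2 (log2 difference −0.48, SE 0.16, limma adjusted p = 0.0222), the member with the weakest call when lines were left out in turn (adjusted p from 0.00722 to 0.0491). Zeb2os, an RNA gene on the opposite strand that lies within Zeb2 near its start, was lower as well, from 4.20 over 5.05 to 5.85 in MEF-1 and from 3.65 over 4.20 to 4.40 in MEF-2 (log2 difference −0.87, SE 0.25, limma adjusted p = 0.00928). The MEF-1 clonal lines had the same order in both genes. Pearson's r over these 7 lines was 0.96 (exact permutation p = 0.00139, adjusted over 11 relations 0.0153; 0.92 without the 2 lines farthest from the median of Zeb2) and Spearman's rho was 1 (p = 0.000397, the smallest that 7 lines can give, adjusted 0.00437). In MEF-2, r was 0.68 and rho 0.82 (adjusted p = 0.322 and 0.125). The genes overlap on opposite strands, and their reads cannot be told apart without the strand. The library kit was directional, but whether the counting used the strand is not given in the sources used here.

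Zeb1 (ENSMUSG00000024238, chromosome 18, 5591860 to 5775467, plus strand) ran from 13.33 over 13.59 to 13.87 in MEF-1 and from 13.42 over 13.61 to 13.68 in MEF-2 (difference −0.03, SE 0.09, limma adjusted p = 0.805). The MEF-1 lines fell apart, however. Lines 1, 4 and 5 were at 13.33, 13.36 and 13.41, below the other MEF-1 clones at 13.59 to 13.87. In these same 3 lines the median of the other 366 genes of chromosome 18 was at −0.48, −0.51 and −0.45, against 0.04 to 0.16 in the other 4 and 0.13 to 0.17 in all MEF-2 clonal lines, and it was at −0.15 in the MEF-1 parental line. The paper reports reduced DNA coverage of this chromosome as well, in some or all lines of the same culture, and proposes monosomy. Whether the lines with low RNA are the lines with low DNA coverage was not tested. Relative to its chromosome, Zeb1 was at 13.81, 13.87 and 13.85 in lines 1, 4 and 5. These values were above the other MEF-1 clones (13.46 to 13.79) and above all MEF-2 clones (13.28 to 13.52). With chromosome medians taken away Zeb1 was lower in MEF-2 by a log2 difference of −0.32 (SE 0.06, limma adjusted p = 0.000577). The 3 genes whose values followed Zeb1 best over the 14 clonal lines, each line taken relative to the mean of its own culture, were Ldlrad4, Yipf5 and Wdr55 (Pearson's r of 0.88 to 0.89, as a description), and all 3 lie on chromosome 18.

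**Figure D2:**
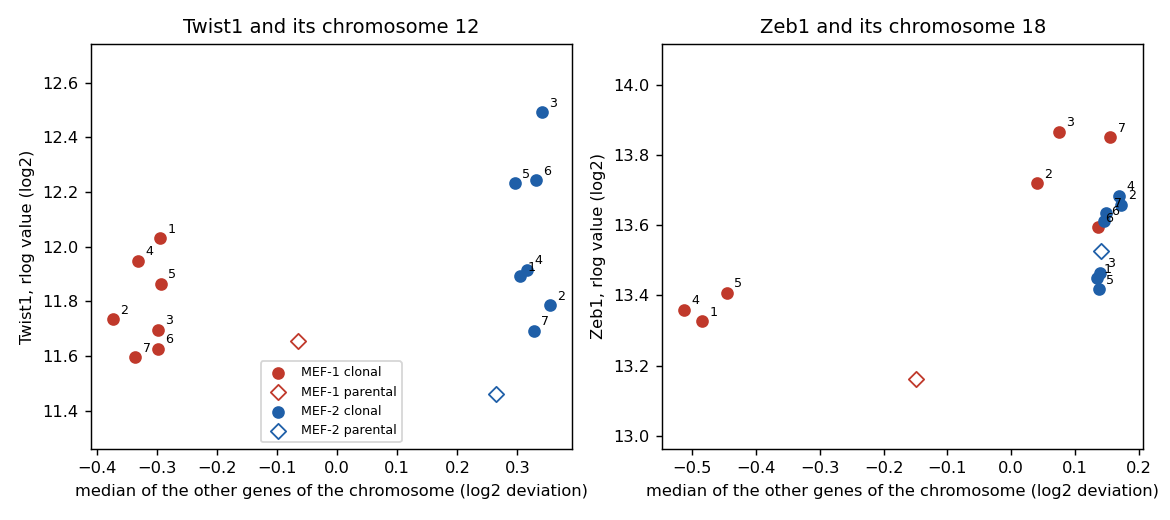
rlog values of Twist1 (left) and Zeb1 (right) against the median deviation of the other genes of their chromosome (log2), 1 point per line, with clone numbers. Filled dots are clonal lines and diamonds parental lines, MEF-1 in red and MEF-2 in blue. Chromosome 12 separates the cultures by 0.64, whereas chromosome 18 is low in MEF-1 lines 1, 4 and 5, where Zeb1 is low too.

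**Figure D3:**
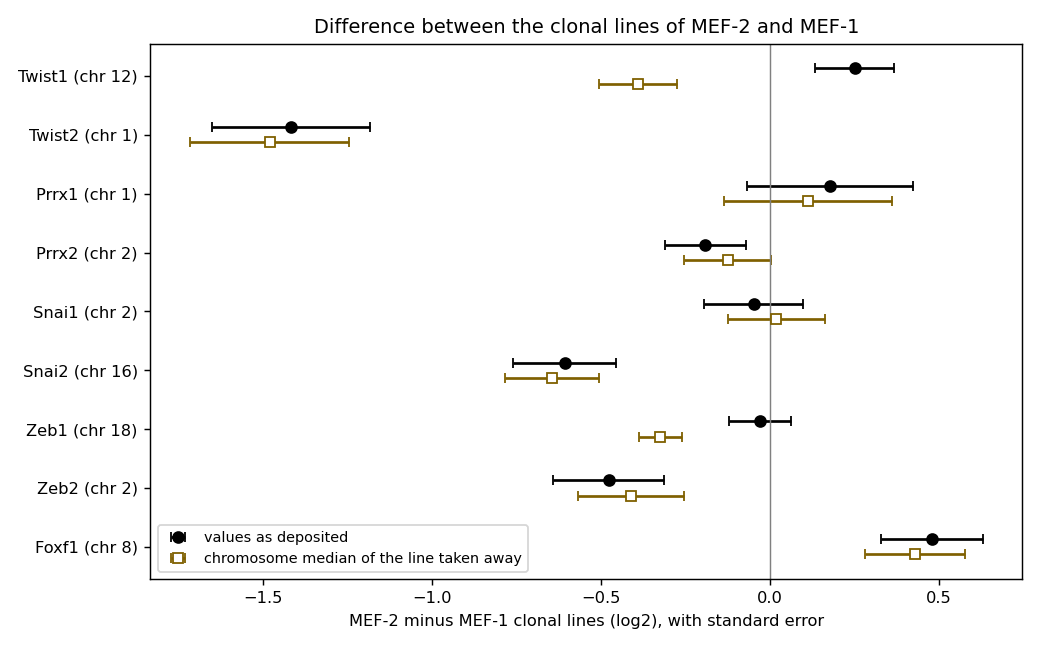
Difference of the 7 MEF-2 from the 7 MEF-1 clonal lines (log2, horizontal axis, with SE) for the 9 members tested, from the values as deposited (black dots) and with the chromosome median of each line taken away (open squares). Twist1 changes from 0.25 to −0.39 and Zeb1 from −0.03 to −0.32, and the other 7 differences move by under 0.1.

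Foxf1 (ENSMUSG00000042812, chromosome 8, 121084386 to 121088144, plus strand) was the 1 member that was higher in MEF-2. It ran from 10.77 over 11.05 to 11.52 in the MEF-1 clonal lines and from 11.12 over 11.75 to 12.07 in MEF-2, where lines 4 to 7 were above all MEF-1 clones. The difference was 0.48 (SE 0.15, 1.39-fold, limma adjusted p = 0.0136). The MEF-1 parental line, at 11.92, was above all 7 of its clones, with a mean difference of −0.79 from it, whereas the MEF-2 parental line, at 11.67, was among its own. The parental lines thus stood the other way around, and with them added to each set the difference was 0.39 (adjusted p = 0.0491).

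Fendrr starts 1276 bases from Foxf1 on the opposite strand, and it differed in the opposite direction. It ran from 9.11 over 9.51 to 9.59 in the MEF-1 clonal lines and from 7.60 over 8.34 to 8.74 in MEF-2, with no overlap, and the parental lines were at 9.10 and 8.06. Fendrr was 2.24-fold lower in MEF-2 (log2 difference −1.16, SE 0.15, limma adjusted p = 1.39e-05 over 21313 genes of all kinds, 48.3% of which passed). Foxf1 stood above Fendrr by a log2 difference of 1.70 ± 0.24 (SD, n = 7) for MEF-1 clones and 3.34 ± 0.28 (SD, n = 7) for MEF-2 clones without overlap, and by 2.83 and 3.62 in the parental lines. The change of 1.64 was larger than the spread between lines (exact permutation p = 0.000583, the smallest that 7 against 7 can give, adjusted over 5 pairs 0.00291). Within a culture, Pearson's r was 0.45 in MEF-1 and 0.71 in MEF-2, neither of which passed after adjustment (exact permutation, adjusted p = 0.660 and 0.322). Without the 2 lines farthest from the median of Foxf1, r was −0.17 in MEF-1 and 0.53 in MEF-2. Other genes of the locus were also lower in MEF-2, namely Mthfsd, with a difference of −0.34 (adjusted p = 0.000921), and the forkhead gene Foxl1, with −0.48 (adjusted p = 0.00583), which vanished under quantile normalisation (−0.01, adjusted p = 0.975), while Foxc2 did not pass (−0.08, adjusted p = 0.696). The gene model Gm20388 spans Foxf1 on the same strand and shares its locus, so that the split of reads between them is uncertain. The difference of Gm20388 was −0.47 and did not pass (adjusted p = 0.0771).

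**Figure D4:**
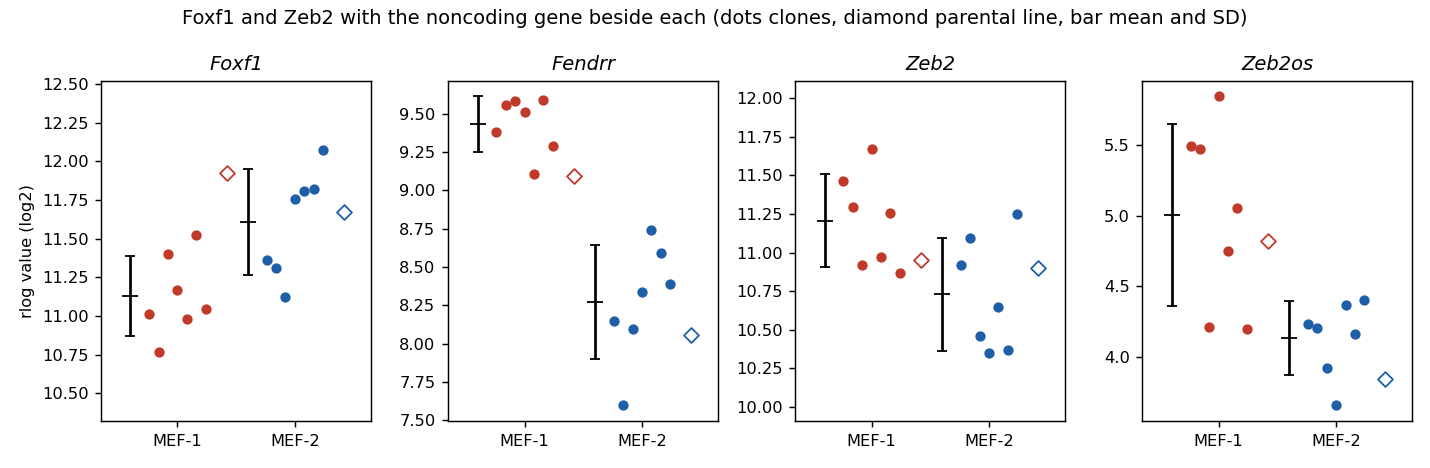
rlog values (log2) of Foxf1 and Zeb2, each with the noncoding gene beside it, in the MEF-1 (red) and MEF-2 (blue) lines. Dots are clonal lines, diamonds parental lines, and bars the mean and SD of 7 clonal lines. Fendrr is 9.11 to 9.59 in MEF-1 and 7.60 to 8.74 in MEF-2 clones while Foxf1 is higher in MEF-2, and Zeb2os is lower in MEF-2 as Zeb2 is.

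Over all members, 35 annotated genes of any kind within 100 kb of a member were expressed, of which 22 were protein-coding and 13 were not. Of the 22, 11 passed the test, 3 higher and 8 lower in MEF-2, against the 56.1%, 27.5% and 28.6% of protein-coding genes given above. Of the 13, taken from the fit over genes of all kinds, 0 were higher and 6 lower, against 22.6% and 25.7% of all genes in that fit (48.3% in either direction). The split was not tested. The calls were 3 lower of 3 genes at Twist2, 3 lower of 6 at Foxf1, 3 lower of 8 at Snai1, 2 lower of 3 at Zeb1, 1 higher and 2 lower of 7 at Prrx2, 1 higher and 1 lower of 2 at Zeb2, 1 higher of 3 at Tcf21, 0 of 2 at Prrx1 and 0 of 1 (Hdac9) at Twist1.

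Between the clonal lines of one culture, the members varied more than most genes of like average. The SD over the 7 lines was above the median of protein-coding genes whose average lies within 0.5 of the member's in 8 of 9 members in MEF-1, Twist2 being the exception, and in 9 of 9 in MEF-2. Prrx1 varied most for its level, with an SD of 0.49 in MEF-1 and 0.52 in MEF-2, above 96.1% and 97.3% of such genes, whose median SDs were 0.14 and 0.11. Zeb1 in MEF-2, with an SD of 0.11, was at the median, while in MEF-1, where chromosome 18 was uneven, it was 0.23. These are descriptions and were not tested.

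**Figure D5:**
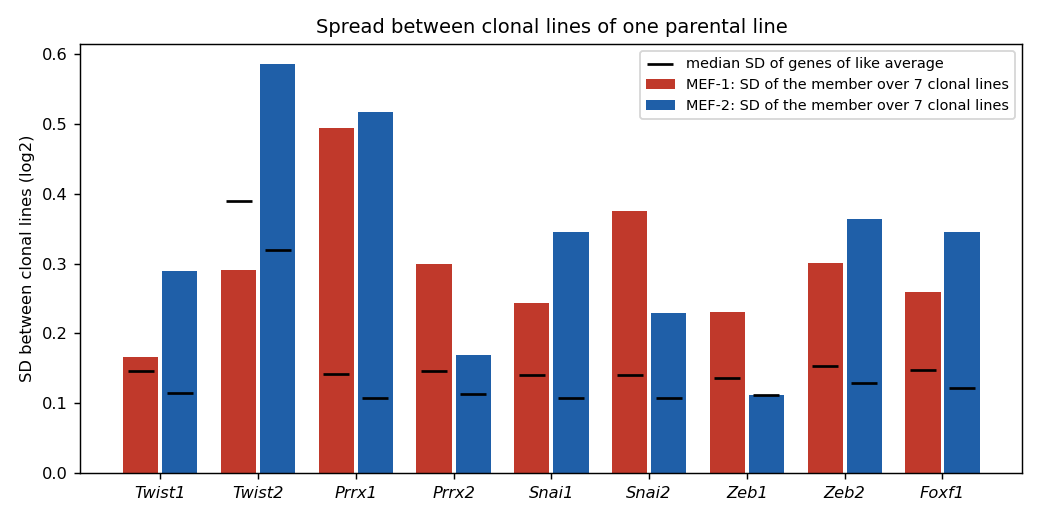
SD of each of the 9 tested members over the 7 clonal lines of MEF-1 (red bars) and of MEF-2 (blue bars), in log2 units. The black line on a bar is the median SD of protein-coding genes of like average. Prrx1 reaches 0.49 and 0.52 against medians of 0.14 and 0.11, and of the 9 tested members shown only Twist2 in MEF-1 lies under its median.

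Clones that were high in one member were not high in all. Over the 36 pairs of expressed members, Pearson's r over the 14 clonal lines, each relative to the mean of its culture, ran from −0.73 for Prrx1 with Foxf1 to 0.66 for Prrx2 with Zeb1, followed by 0.60 for Twist1 with Prrx1 and, on the negative side, −0.60 for Twist1 with Zeb1. These values are descriptions over lines that share library scaling and, for Zeb1, a chromosome of uneven level among the MEF-1 clones. Of the 7 relations between paralogues within a culture none passed, with the highest for Twist1 and Twist2 in MEF-1 (r = 0.58, exact permutation p = 0.167, adjusted over 11 relations 0.460) and Zeb1 with Zeb2 in MEF-1 not computed because Zeb1 falls into separate groups there. The genes most like the other members over the 14 lines, by the same measure, were Dguok, Dop1a and Cyhr1 for Twist1 (r from 0.89 to 0.91), Vsig10, Atraid and Atp1b1 for Prrx1 (0.81 to 0.85), Vangl1, Aldh2 and Kcnj2 for Prrx2 (0.86 to 0.87), and Rel, Plekhf1 and Brcc3 for Snai1 (0.81 to 0.84). For Snai2 they were Cd9, Nsun3 and Lrch3 (0.83 to 0.87), for Zeb2 Cdc42ep2, Aamp and Wdfy1 (0.82 to 0.90) and for Foxf1 Wipf1, Rabggtb and Wwtr1 (0.81 to 0.86). Twist2 had no gene above 0.75, its closest being Nr1h2, Tlnrd1 and Cox8a. They are the top of 8748 or 8749 genes and no p is given.

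With respect to their parental line, all 7 clones stood on one side in 4 of the 9 members in MEF-1, where 40.9% of all genes tested did so, and in 2 of 9 in MEF-2, where 34.2% did. In MEF-1 these were Twist2, Prrx1 and Zeb1, higher in all clones, and Foxf1, lower in all. In MEF-2 they were Twist1 and Snai1, both higher in all clones. The mean distances from the parental line were 0.73 for Twist2, 1.20 for Prrx1, 0.43 for Zeb1 and −0.79 for Foxf1 in MEF-1, and 0.58 for Twist1 and 0.48 for Snai1 in MEF-2. A parental line is 1 library, and a shift shared by its clones cannot be told from an error of that library.

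The partners of the members were taken from lists of genes chosen by function. Their counts, and those of the lists that follow, are to be read against the 56.1% of all genes tested that passed (27.5% higher, 28.6% lower in MEF-2), and none of the lists was tested as a list. Of the 7 genes for E proteins and Id inhibitors, all were tested, 1 was higher and 3 were lower in MEF-2. The E protein gene Tcf3 was higher without overlap (0.47, SE 0.05, limma adjusted p = 4.24e-06), whereas the Id genes Id1 (−0.69, adjusted p = 0.00403) and Id3 (−0.41, adjusted p = 0.000787) were lower, and Id4 (0.44, adjusted p = 0.0654) and Id2 (0.13, adjusted p = 0.589) did not pass. The E protein gene Tcf4, on chromosome 18, was lower (−0.38, adjusted p = 0.0484), a call that was lost in 14 alternative settings, while with the chromosome median taken away the difference was −0.68 (adjusted p = 2.53e-05). Of the 8 genes for corepressors of Snail and Zeb factors, 3 were higher and none lower, a smaller share called than over all genes. Ctbp2, which Zeb factors recruit, was higher by 0.55 (adjusted p = 1.25e-05) and the histone deacetylase gene Hdac2 by 0.35 (adjusted p = 7.1e-05). The third, the CoREST gene Rcor1 (0.67, adjusted p = 2.12e-08), lies on chromosome 12, and with the chromosome median taken away its difference was 0.03 (adjusted p = 0.573).

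Other members of the same families showed differences in both directions. Of the 8 other mesenchymal forkhead genes, 2 were higher and 3 lower. Foxf2, the paralogue of Foxf1, was lower, from 6.82 over 9.28 to 10.14 in MEF-1 and from 6.06 over 6.82 to 7.25 in MEF-2 (−2.15, SE 0.39, limma adjusted p = 0.000310), as were Foxd2 (−0.75, adjusted p = 0.000147) and, except under quantile normalisation, Foxl1 (above), while Foxs1, a marker of pericytes, was higher by 1.69 (adjusted p = 0.000992). Foxf1 and Foxf2 thus differed in opposite directions. Under quantile normalisation the difference of Foxd2 was −0.43 (limma adjusted p = 0.0219). Shox2, a homeobox gene of the limb, was lower by a log2 difference of −2.16 (adjusted p = 0.000759), the 1 called of 2 tested in a list of 3 homeobox genes. Alx4 was not called (−0.23, adjusted p = 0.111) and Alx1 was listed at 0 in all lines. The third Snail gene, Snai3, was low and higher in MEF-2 (2.30 ± 0.31 and 3.37 ± 0.57, SD, n = 7 each, limma adjusted p = 0.00113). Scrt1, at 0.45 and 0.69, passed as well (adjusted p = 0.0323), a call lost in 9 of 23 alternatives (adjusted p up to 0.0679), and Scrt2 was listed at 0. Of 8 other mesodermal bHLH genes, 2 were tested and Mesp2 was higher by 0.72 (adjusted p = 0.00309).

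The genes that these factors are known to control, or that mark the cells, were counted in the same way. Of 22 epithelial genes, 13 were tested, none was higher and 4 were lower in MEF-2 by limma (6 at an unadjusted p under 0.05 in either direction), all of them low in both cultures. The largest was Marveld3, a tight junction gene, at 3.03 ± 0.53 and 1.79 ± 0.15 (SD, n = 7 each, −1.24, limma adjusted p = 0.000111), followed by Dsp (−0.55, adjusted p = 0.0207), Cldn7 (−0.48, adjusted p = 0.0331) and Crb3 (−0.37, adjusted p = 0.0117). Under quantile normalisation the last 3 lost their call (adjusted p = 0.230, 0.236 and 0.0593), and above the 40th percentile of the average 0 epithelial genes were called, since these 4 are not tested there. Cdh1, the target most often named for Snail and Zeb factors, was at 7.44 ± 0.61 and 7.40 ± 0.67 (SD, n = 7 each) and did not pass (−0.04, adjusted p = 0.919). In all 16 lines the summed level (log2 of the sum) was far lower for the epithelial list, at 8.88 to 9.99, than for the mesenchymal one, at 22.3 to 23.0. Such a sum is set mainly by the highest genes of a list, here with Col1a1 at an average of 20.88 and Fn1 at 20.82. Single genes overlapped, as the mesenchymal Fap (average 3.76) and Thy1 (4.74) lay below Cdh1 (7.44). Of the 18 mesenchymal genes, all tested, 3 were higher and 5 lower. The proteoglycan genes Dcn (−4.74, adjusted p = 5.43e-08) and Lum (−3.68, adjusted p = 4.02e-05) and the protease gene Fap (−1.86, adjusted p = 0.000192) were lower, and Thy1 was higher (2.59, adjusted p = 0.00392). In the MEF-1 and MEF-2 parental lines Dcn was at 8.07 and 6.21, Lum at 7.94 and 5.51, and Fap at 3.39 and 2.43. Parental Thy1, at 6.12 and 10.22, was above all clones of its culture (2.72 to 3.43 and 3.42 to 8.02), which overlapped.

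Of the markers of other cell types, those with summed levels that did not overlap between the clonal lines of the cultures were the mesothelial and the neural ones. Both mesothelial genes tested of 6 were lower in MEF-2, Msln by −1.96 (adjusted p = 6.29e-05) and Upk3b by −0.62 (adjusted p = 0.0455, a call lost in 13 alternatives, down to −0.19 with adjusted p = 0.557 under quantile normalisation), with summed levels of 6.87 to 7.75 in clones of MEF-1 and 5.84 to 6.76 in clones of MEF-2, although the parental lines were close to each other at 7.76 and 7.52. Of the 5 neural crest and neuronal genes, Stmn2 was higher by 4.60 (adjusted p = 5.4e-05) and Ncam1 by 1.21 (adjusted p = 0.000595), and Elavl3 (−0.22, lost in 9 alternatives) was lower, with summed levels of 12.3 to 14.0 and 14.2 to 15.4 and parental values of 12.7 and 14.3. The neural sum was set mainly by its highest gene, Ncam1, at 12.30 to 13.96 in MEF-1 clones and 14.13 to 15.06 in MEF-2 clones. Among all genes tested, 25.9% were likewise free of overlap. Endothelial genes (1 higher, Emcn, by 0.18 and lost in 10 alternatives, 1 lower, Kdr, by −0.89 and lost under quantile normalisation at −0.53, of 5 tested), haematopoietic genes (1 higher, Csf1r, by 1.36, 1 lower, Laptm5, by −0.31 and likewise lost, of 4 tested) and skeletal muscle genes (0 of 1 tested) had ranges of summed levels that overlapped, at 5.08 to 6.40 and 5.11 to 6.85, 6.06 to 6.82 and 6.63 to 8.50, and 2.10 to 2.40 and 2.17 to 2.53. Within each of these lists some markers averaged 0 or lower (4 of 6 mesothelial, with Wt1 at −2.10, 2 of 5 neural, with Sox10 at −1.92, 1 of 6 endothelial, 2 of 6 haematopoietic and 5 of 6 muscle genes, with Myod1 at −1.74), and others were above, such as Upk3b at 6.27, Ncam1 at 13.79, Tek at 4.94 and Csf1r at 6.23. The part of these markers in the differences of Twist2, Snai2, Zeb2 and Foxf1 was not tested.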

How the data were processed

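Total RNA of 16 immortalised MEF lines was depleted of rRNA and sequenced with a directional kit. According to the submitters' processing notes, the authors used Trim Galore 0.6.0, Salmon 1.5.2, mm10 and DESeq2 1.24.0, and the study's methods name Ensembl 102. The deposited values are log2 (rlog), 1 per gene and line, and hold no counts, so the depth per line is unknown and no counting interval can be given. Every row name was mapped to a sample. Values were used without further scaling. The lowest value in a line ran from −2.286 to −2.279, and r over genes above the 40th percentile between clonal lines of one culture was 0.974 to 0.994.

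Identifiers were matched to GENCODE M21 (Ensembl 96, coordinates of mm10, 1-based), with 54200 found and 253 not. MEF-2 and MEF-1 clonal lines (7 each, differences coded MEF-2 minus MEF-1) were compared with limma 3.58.1 in R 4.3.3 with a trended variance prior over 15285 protein-coding genes averaging above 0, or over all genes for noncoding ones, and Benjamini-Hochberg adjustment. The code was tested on simulated data. Chromosome medians are over genes above the 40th percentile, without the member, of each value less its mean over all 14 clones. Exact permutation tests were two-sided. Named genes are the members, up to 4 called genes of each list with the largest difference (all of lists up to 4), expressed genes within 100 kb of a member, of which those that bear on a member are given, and the 3 genes most like each member. Cdh1, Col1a1, Fn1, Fendrr against Foxf1, the pair balances, the correlations with noncoding neighbours and the share of genes with all clones on one side of the parental line were singled out after values were seen. Some list genes are not reported here. The members and lists were chosen with earlier results of these data known. Alternatives were other filters, a pseudocount of 1, other centring, quantile normalisation, chromosome medians, a constant prior, parental lines added, a replicate block and leaving out each line. Methylation data were not analysed here. Promoters are from RefSeq, where 7 of 10 members were printed or counted. Python 3.11.15 with pandas 2.3.3, numpy 2.4.6, scipy 1.17.1 and matplotlib 3.10.9 was used.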

Additional observations from a re-analysis of the deposited data

Results flagged for a closer look

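Among 92 sets of 7 clonal lines examined for single lines far from the others (Dixon's test), 4 had such a line, where chance gives about 1 in 20, or 4.6. Only 1 was a member, Tcf21, at −2.01 in MEF-1 clonal line 7 against −2.11 to −2.10 in the other lines. Id1 was at 11.65 in MEF-1 clonal line 2, below the others. Line 5 of the MEF-1 clones had Mesp2 at 2.33 and line 4 had Thy1 at 3.43, both above the other clones of MEF-1.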

How the results depend on the processing

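The 4 called members kept their direction and their call in each of the 25 alternatives, with Twist2 between −1.61 and −1.22. Twist1 reversed, to −0.39, with the chromosome median of the line taken away, the setting under which Zeb1 passed the test. The number of genes called was 8026 to 8673 without one line each and 8226 with the clone number as replicate block, which changed no member's call. The block rests on numbers only, as same-numbered lines are different cells (r of their deviations from −0.14 to 0.23, best with the own number in 1 of 7 and 2 of 7 lines). The balance of Snai1 over Snai2 passed at 0.66 with chromosome medians taken away and ranged from 0.46 to 0.70 without one line each. Without one line each, Pearson's r of Foxf1 with Fendrr in MEF-1 ran from 0.28 to 0.85, the highest without line 2. That of Zeb2 with Zeb2os in MEF-2 ran from 0.58 to 0.79, the highest without line 5. Among list genes, calls of Upk3b (13 settings), Emcn (10), Scrt1 (9), Elavl3 (9) and Cldn7 (8) were lost most often beside Tcf4, and quantile normalisation also ended the calls of Foxl1, Dsp, Crb3, Kdr and Laptm5. The haematopoietic list, with 2 genes called, had 4 with the parental lines added and 3 under quantile normalisation. The causes were not tested. The depth behind the values is unknown, and rlog shrinkage understates differences of genes with few reads.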
